A study of Mus musculus with 12 samples.

Results

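The Fc receptors and the ITAM signalling chain behind them were followed in hippocampal microglia through 9 genes chosen by name: the Fc gamma receptor genes Fcgr1, Fcgr2b, Fcgr3 and Fcgr4, the adaptors Fcer1g and Tyrobp, and the signalling genes Syk, Btk and Blnk. All 9 were on the panel of 545 endogenous genes, and all 9 lay above background in 12 of 12 samples, so none was lost to the filter on low counts. BDS pups, male Balbc mice at postnatal day 28, had been taken from their mother for 15 min daily from postnatal day 1 to 21 (brief daily separation). Control pups were of the same sex, strain and age, and the labels do not describe their handling separately. Each group held 6 samples; by the design text no 2 samples came from the same litter, and no transgene or deletion is named for either. Microglia, the resident macrophages of the brain, were enriched on a Percoll gradient and sorted by FACS, and their RNA, after 5 rounds of PCR on the cDNA, was counted on a NanoString panel, in which a colour barcode is counted for each transcript.

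Fc gamma receptors bind the constant part of IgG and let macrophages take up antibody-coated particles. The activating receptors Fcgr1, Fcgr3 and Fcgr4 pair with the gamma chain Fcer1g, whose cytoplasmic tail carries an ITAM, a tyrosine motif that Src-family kinases phosphorylate and that then recruits the kinase Syk. Tyrobp (DAP12) is a second ITAM adaptor, which serves Trem2 in microglia, whereas Fcgr2b carries an inhibitory motif (ITIM) and restrains the activating receptors. Btk, a Tec-family kinase, and Blnk, a scaffold protein, are best known from B cell receptor signalling after Syk.

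In the RefSeq gene table of GRCm38.p6 all 9 genes were matched by accession. Fcgr2b, Fcgr4 and Fcgr3 are direct neighbours among the protein-coding genes of chromosome 1, and 9 protein-coding genes lie between Fcgr2b and Fcer1g. Tyrobp is the neighbour of Hcst, another transmembrane adaptor gene, on chromosome 7. Start-site windows (250 bases before to 50 bases after the annotated start, from RefSeq) were matched for 8 of the 9 genes, in 10 windows. These windows are shown for the 4 Fc receptor genes, because activating and inhibitory receptors are set against each other below, and for Btk and Blnk, whose counts ran together over the samples. Capitals mark GAGGAA or its reverse complement TTCCTC, the core bound by the myeloid factor PU.1, searched on both strands. Each line runs 5′ to 3′ on the strand of the gene.
Fcgr1, chr3:96293920-96294219, minus strand: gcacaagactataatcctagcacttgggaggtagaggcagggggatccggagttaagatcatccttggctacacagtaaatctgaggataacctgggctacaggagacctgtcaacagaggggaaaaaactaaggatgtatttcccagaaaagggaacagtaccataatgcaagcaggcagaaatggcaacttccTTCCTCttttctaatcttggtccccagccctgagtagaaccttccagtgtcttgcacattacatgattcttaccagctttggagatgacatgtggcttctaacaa
Fcgr3, chr1:171059354-171059653, minus strand: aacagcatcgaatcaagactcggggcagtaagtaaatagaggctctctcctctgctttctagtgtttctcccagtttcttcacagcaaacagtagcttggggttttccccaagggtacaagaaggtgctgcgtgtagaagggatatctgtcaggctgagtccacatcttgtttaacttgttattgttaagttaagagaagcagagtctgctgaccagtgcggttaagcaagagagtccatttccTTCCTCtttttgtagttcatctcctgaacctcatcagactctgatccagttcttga
Fcgr4, chr1:171018676-171018975, plus strand: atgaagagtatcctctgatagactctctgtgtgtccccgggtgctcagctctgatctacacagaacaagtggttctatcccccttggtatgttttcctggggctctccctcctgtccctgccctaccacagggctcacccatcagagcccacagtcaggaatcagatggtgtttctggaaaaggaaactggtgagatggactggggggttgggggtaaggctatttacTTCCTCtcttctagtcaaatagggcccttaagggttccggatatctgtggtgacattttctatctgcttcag
Fcgr2b, chr1:170976022-170976321, minus strand: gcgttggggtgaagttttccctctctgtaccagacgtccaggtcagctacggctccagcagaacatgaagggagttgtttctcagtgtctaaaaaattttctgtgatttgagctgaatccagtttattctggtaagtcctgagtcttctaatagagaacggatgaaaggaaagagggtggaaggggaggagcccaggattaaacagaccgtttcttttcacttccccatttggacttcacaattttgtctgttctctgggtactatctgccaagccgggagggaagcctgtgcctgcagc
Btk, chrX:134583091-134583390, minus strand: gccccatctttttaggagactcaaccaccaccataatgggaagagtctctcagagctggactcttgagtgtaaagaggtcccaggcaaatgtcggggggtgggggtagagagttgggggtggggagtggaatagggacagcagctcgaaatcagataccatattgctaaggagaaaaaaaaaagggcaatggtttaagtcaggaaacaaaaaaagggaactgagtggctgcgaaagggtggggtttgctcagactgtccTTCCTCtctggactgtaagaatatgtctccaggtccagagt
Blnk, chr19:40994172-40994471, minus strand: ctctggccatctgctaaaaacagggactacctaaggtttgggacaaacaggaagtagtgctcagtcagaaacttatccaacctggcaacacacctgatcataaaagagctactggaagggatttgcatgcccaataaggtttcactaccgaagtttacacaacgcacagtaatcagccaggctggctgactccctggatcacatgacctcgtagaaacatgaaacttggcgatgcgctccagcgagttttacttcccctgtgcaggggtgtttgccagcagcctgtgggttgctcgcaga

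The windows of Fcgr1 and Fcgr4 each held 1 match, at positions -55 and -22, where the annotated start is 0. Fcgr3 had 2 annotated starts with overlapping windows, the first of which is shown, and the same match lay at -6 from 1 start and -15 from the other. The windows of Fcgr2b, Fcer1g and Blnk held none. Btk held 1 match at position 9, and Syk had 2 annotated starts, of which 1 held a match. Of all 32851 windows in the same RefSeq table, 28.28% held at least 1 match on either strand, so a match in a single window is common.

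Total endogenous counts ran from 577135 to 1103445 in BDS samples and from 827591 to 1341132 in control samples (two-sided exact permutation p = 0.0628, adjusted p = 0.0942 over 3 measures; n = 6 each). Genes above background numbered 324 ± 20.5 in BDS samples and 361 ± 18.2 in controls (SD, n = 6 each; two-sided exact permutation p = 0.00866, adjusted p = 0.0260). The housekeeping factor, used to scale each sample, was 0.919 ± 0.265 in BDS samples and 1.15 ± 0.226 in controls (two-sided exact permutation p = 0.139, adjusted p = 0.139). BDS 21, BDS 25 and BDS 55 stood apart: they had the lowest housekeeping factors of the 12 samples (0.609, 0.649 and 0.854), and their ratio of Rpl19 to Polr2a counts was 0.790, 0.606 and 0.465, against 0.128 to 0.258 in the other 3 BDS samples and 0.113 to 0.267 in controls. Results are therefore also given without them. The microglia marker list was present for 7 of 7 genes on the panel, with summed levels of 175315 to 227449 normalized counts in BDS samples and 176813 to 194730 in controls.

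Other cells that carry Fc receptors were looked for through their markers. Of 10 B cell markers on the panel, Pax5, Cd22 and Cr2 were at background in all 12 samples, and the summed level of the list was 976 to 1216 normalized counts in BDS samples and 1051 to 1179 in controls. Of the same list, Pou2f2, Cd79b and Tnfrsf13b were above background in 12 of 12 samples and Cd79a in 6. Tnfrsf13b, a receptor for the B cell factors BAFF and APRIL, was at 40.7 ± 15.1 normalized counts in BDS and 26.5 ± 2.48 in controls (log2 fold change 0.59 ± 0.23, adjusted p = 0.289). Pou2f2, a transcription factor gene, was at 752 ± 54.9 in BDS and 843 ± 44.0 in controls (log2 fold change -0.16 ± 0.08, adjusted p = 0.380). Btk and Blnk are B cell genes too, and the part of B cell RNA in their values was not tested. Of 7 NK cell markers, Eomes and Gzmb were at background throughout, with sums of 232 to 315 in BDS samples and 241 to 500 in controls. Klrk1, Klrd1 and Prf1 were above background in 12 of 12 samples and Gzma in 6. Prf1 (perforin) was at 78.2 ± 19.9 in BDS and 125 ± 99.8 in controls (log2 fold change -0.67 ± 0.37, adjusted p = 0.428), and Klrd1 at 103 ± 18.3 in BDS and 97.6 ± 17.3 in controls. The 7 neutrophil markers summed to 3104 to 3703 in BDS samples and 3139 to 3745 in controls, nearly all of it Csf3r, with Camp and Cxcr2 at background in every sample. Of 7 markers of blood monocytes and border macrophages, Cd163, Marco and Msr1 were at background in every sample, and the sums were 307 to 507 in BDS samples and 339 to 550 in controls. Ccr2, the chemokine receptor of blood monocytes, was above background in 12 of 12 samples, at 292 ± 72.6 in BDS and 377 ± 76.4 in controls (log2 fold change -0.36 ± 0.17, adjusted p = 0.380), and Cd36 in 9. The part of these cells in the Fc receptor values was not tested. The mast cell genes Fcer1a and Kit were at background in every sample, as were Cd3d, Cd3e and Cd28 among 8 T cell markers, whose sums were 89.9 to 180 in BDS samples and 97.96 to 143 in controls.

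Values below are normalized counts, meaning barcode counts divided by the housekeeping factor of the sample. That factor is the geometric mean of 6 housekeeping genes in the sample, relative to its geometric mean over all 12 samples. Probes differ in capture, so levels are compared between samples and not between genes. As the samples are bulk RNA, fewer expressing cells and less RNA per cell cannot be told apart. No member passed the adjusted threshold of 0.05 in edgeR's quasi-likelihood test, and neither did any of the 357 tested genes (0%; smallest adjusted p = 0.167). At an unadjusted p under 0.05, 2 of the 9 members were lower in BDS (Fcgr1 and Fcgr2b) and 0 were higher, beside 11.5% of all tested genes lower and 0.84% higher. No member had groups that did not overlap, beside 1.12% of tested genes with every BDS sample below every control and 0% with every BDS sample above. The members' log2 fold changes were below 0 for 4 and above 0 for 5, with a median of 0.04, while over all tested genes 236 were below 0 and 121 above, with a median of -0.10. With TMM scaling the median of all tested genes was -0.01, and the genes at an unadjusted p under 0.05 were 14 lower and 18 higher in BDS, against 41 lower and 3 higher with housekeeping scaling. The members at that level also changed with the scaling: with TMM, total count or DESeq2's own scaling, 0 were lower and 2 were higher (Blnk and Tyrobp). Over all tested genes, 13 were lower and 19 higher of 357 with total count scaling. With DESeq2's own scaling 14 were lower and 13 higher of 356. The members at that level changed with the housekeeping genes used as well. Without the housekeeping gene Sdha, and with all 14 housekeeping genes, 1 was lower (Fcgr2b) and 1 was higher (Blnk). Over all 357 tested genes, 30 were lower and 5 higher without Sdha, and 36 were lower and 4 higher with all 14.

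**Figure D1:**
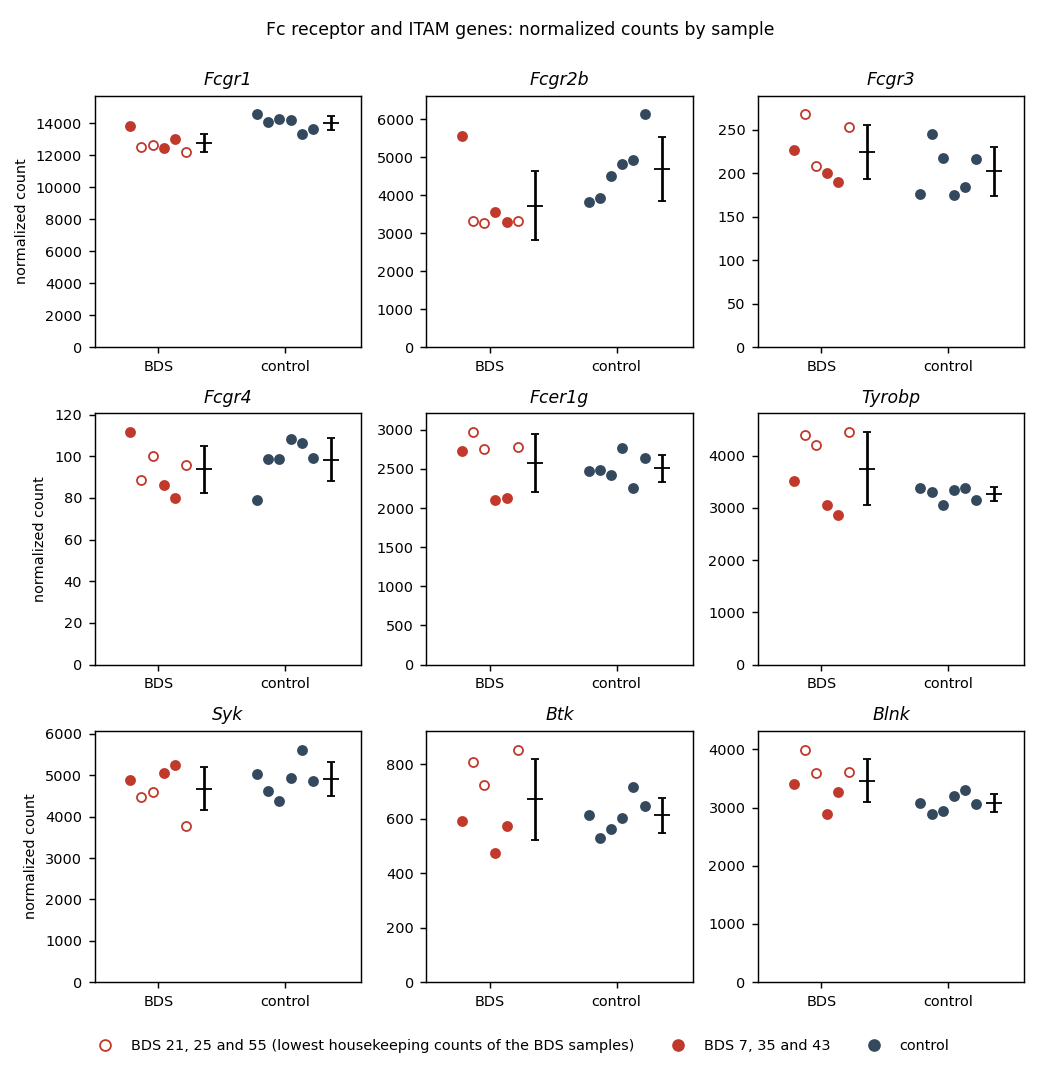
Normalized counts (vertical axes, from 0) of the 9 genes in each BDS and control sample, with the mean and SD of each group (n = 6) as a cross and bar; open circles are BDS 21, BDS 25 and BDS 55. Fcgr1 and Fcgr2b lie below every control in 5 of 6 BDS samples, and in Tyrobp, Btk and Blnk the open circles lie above every control.

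Among the activating receptors, Fcgr1, the high-affinity IgG receptor, was the least variable member. Its normalized counts were lowest at 12190, with a median of 12580 and a highest value of 13796, in BDS samples, against a lowest of 13324, a median of 14147 and a highest of 14550 in controls. Of the 6 BDS samples, 5 were below the lowest control, and BDS 7 lay inside the control range. The group means were 12766 ± 576 in BDS and 14015 ± 449 in controls (SD, n = 6 each). The log2 fold change was -0.13 ± 0.06 (SE), with an adjusted p = 0.380 in edgeR. Relative to the median of all tested genes it was -0.03. With TMM scaling it was -0.04 ± 0.07 (adjusted p = 0.810), so the size of the Fcgr1 difference depended on the scaling. Without BDS 21, BDS 25 and BDS 55 it was -0.10 ± 0.05 (adjusted p = 0.891).

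Fcgr3, the low-affinity activating receptor that is also used by NK cells, had 190 (lowest), 218 (median) and 268 (highest) normalized counts in BDS samples, against 176, 200 and 245 in controls. The groups overlapped, with BDS 21 and BDS 55 above every control. The log2 fold change was 0.15 ± 0.13 (adjusted p = 0.603), 0.23 ± 0.13 with TMM scaling, and 0.02 ± 0.14 without BDS 21, BDS 25 and BDS 55.

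Fcgr4, an activating receptor for IgG2 subclasses in the mouse, was the member closest to background, with a count at least 2.97 times the background level in every sample. It had 80.2, 92.4 and 112 normalized counts (lowest, median, highest) in BDS samples, against 78.9, 99.1 and 108 in controls. The 2 groups covered nearly the same range, and control 5 stood low in its group. The log2 fold change was -0.07 ± 0.13 (adjusted p = 0.780), and it was 0.02 with TMM scaling, so its sign depended on the scaling. With background subtracted it was -0.19 ± 0.12 (adjusted p = 0.396).

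Fcgr2b, the inhibitory receptor, had the widest difference of the 9 genes. Its normalized counts were 3282 (lowest), 3332 (median) and 5571 (highest) in BDS samples, against 3827, 4658 and 6130 in controls. The other 5 BDS samples lay in a narrow band from 3282 to 3551, below every control, while BDS 7 at 5571 was above 5 of the 6 controls. The means were 3726 ± 909 in BDS and 4687 ± 839 in controls (SD, n = 6 each), a log2 fold change of -0.33 ± 0.15 (adjusted p = 0.380). BDS 7 had a large part in this estimate: without it the log2 fold change was -0.48 ± 0.11, with an adjusted p = 0.0510 that still missed the threshold. Without control 54, the highest control, it was -0.24 ± 0.14 (adjusted p = 0.525). Without BDS 21, BDS 25 and BDS 55 it was -0.18 ± 0.19 (adjusted p = 0.967), and with TMM scaling -0.24 ± 0.12 (adjusted p = 0.524). Fcgr2b, Fcgr3 and Fcgr4 encode related extracellular domains, and whether their probes capture each other's transcripts was not tested.

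**Figure D2:**
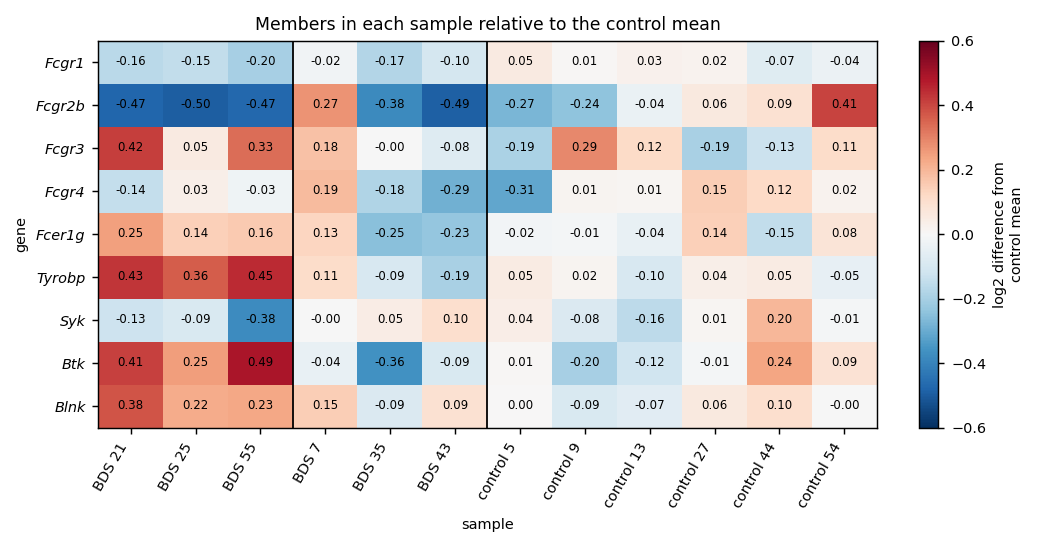
Log2 difference of each sample (columns, BDS 21, BDS 25 and BDS 55 first, then the other BDS samples, then controls) from the control mean for each gene (rows); red is above and blue below the control mean. In BDS 21, BDS 25 and BDS 55, Tyrobp is at 0.36 to 0.45 and Fcgr2b at -0.50 to -0.47.

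The adaptors differed in where their BDS samples fell. Fcer1g, the gamma chain shared by the activating receptors, had 2102, 2745 and 2972 normalized counts (lowest, median, highest) in BDS samples, against 2257, 2475 and 2766 in controls. BDS samples lay on both sides of the controls: BDS 21 and BDS 55 were above every control, and BDS 35 and BDS 43 were below every control. The log2 fold change was 0.04 ± 0.10 (adjusted p = 0.827), and 0.13 ± 0.10 with TMM scaling. It was -0.11 ± 0.10 without BDS 21, BDS 25 and BDS 55, so the sign rested on those 3 samples.

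Tyrobp had 2855, 3861 and 4450 normalized counts (lowest, median, highest) in BDS samples, against 3056, 3323 and 3373 in controls. The coefficient of variation was 18.7% in BDS samples and 4.06% in controls, beside medians over all tested genes of 19.4% in BDS and 14.8% in controls. Of the 6 BDS samples, 4 were above every control (BDS 7, BDS 21, BDS 25 and BDS 55) and BDS 43 was below every control. The means were 3747 ± 699 in BDS and 3266 ± 133 in controls (SD, n = 6 each), with a log2 fold change of 0.20 ± 0.11 (adjusted p = 0.428). BDS 21, BDS 25 and BDS 55 averaged 0.41 above the control mean on the log2 scale, and the other 3 BDS samples averaged -0.06. Without the first 3, the log2 fold change was -0.05 ± 0.08 (adjusted p = 0.967). The ratio of Rpl19 to Polr2a and the low housekeeping counts moved with these Tyrobp values, and their part in them was not tested.

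Syk, the kinase that docks on phosphorylated ITAMs, had 3770, 4744 and 5244 normalized counts (lowest, median, highest) in BDS samples, against 4390, 4899 and 5622 in controls. BDS 55 alone was below every control, and the other 5 BDS samples lay inside the control range. The log2 fold change was -0.07 ± 0.09 (adjusted p = 0.695). It was 0.03 ± 0.09 with TMM scaling and 0.04 ± 0.08 without BDS 21, BDS 25 and BDS 55, so no direction held.

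Btk had 474, 658 and 854 normalized counts (lowest, median, highest) in BDS samples, against 530, 608 and 717 in controls. BDS 21, BDS 25 and BDS 55 were above every control, and BDS 35 was below every control. The log2 fold change was 0.13 ± 0.14 (adjusted p = 0.665), 0.23 ± 0.13 with TMM scaling, and -0.16 ± 0.12 without BDS 21, BDS 25 and BDS 55 (adjusted p = 0.896). The spread between BDS samples, a coefficient of variation of 22.1% against 10.7% in controls, was wider than the difference between the group means.

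Blnk, the scaffold that links Syk to Btk and phospholipase C gamma in B cells, had 2891, 3499 and 3998 normalized counts (lowest, median, highest) in BDS samples, against 2884, 3076 and 3295 in controls. Of the 6 BDS samples, 4 were above every control and none was below every control. The means were 3462 ± 372 in BDS and 3078 ± 155 in controls (SD, n = 6 each), a log2 fold change of 0.17 ± 0.08 (adjusted p = 0.380). Its sign was positive in all 27 alternative settings, from 0.05 without BDS 21, BDS 25 and BDS 55 to 0.27 with TMM scaling (adjusted p = 0.374 there). Without those 3 samples the adjusted p was 0.967.

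**Figure D3:**
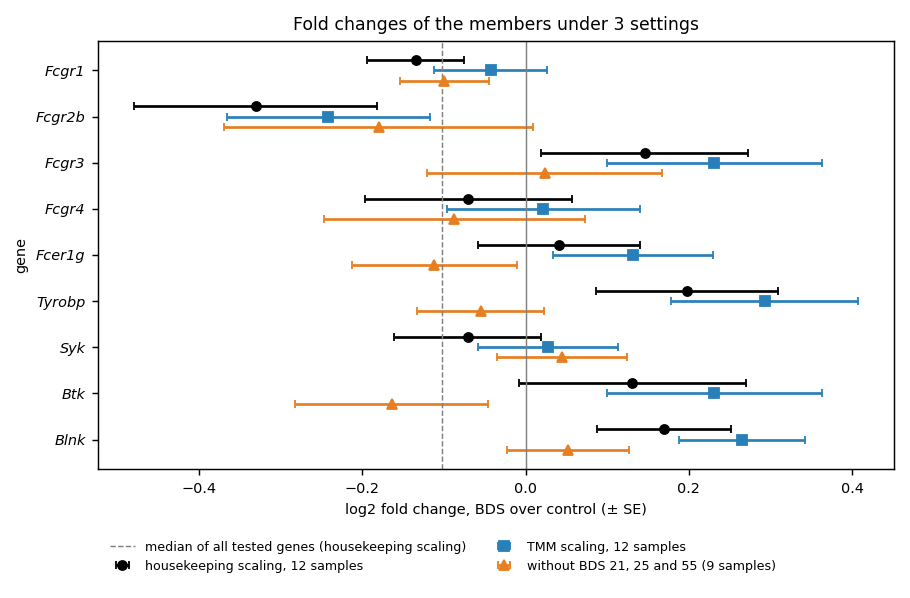
Log2 fold changes, BDS over control, with SE (horizontal axis) for each gene (vertical axis) under housekeeping scaling with 12 samples, TMM scaling with 12 samples, and housekeeping scaling without BDS 21, BDS 25 and BDS 55; the dashed line is the median of all tested genes, -0.10. Fcgr1 and Fcgr2b are below 0 in all 3 settings, Fcgr3 and Blnk above 0 in all 3, and Tyrobp, Fcer1g and Btk turn from above to below 0 without the 3 samples.

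The 3 samples with low housekeeping counts differed from the other 3 BDS samples in the adaptors and kinases more than in Fcgr1 or Fcgr4. They also differed in the other Fc receptor genes. Relative to the control mean on the log2 scale, Fcgr2b averaged -0.48 in those 3 samples and -0.20 in the other 3. Fcgr3 averaged 0.27 and 0.03, and Fcgr4 -0.04 and -0.09, in the same order. In BDS 21, BDS 25 and BDS 55, all 3 samples were above every control for Tyrobp, Btk and Blnk, and all 3 were below every control for Fcgr1 and Fcgr2b. In BDS 7, BDS 35 and BDS 43, the mean log2 difference from the control mean was -0.12 for Fcer1g, -0.16 for Btk, -0.10 for Fcgr1, -0.20 for Fcgr2b, -0.06 for Tyrobp and 0.05 for both Syk and Blnk. Fcgr1 and Fcgr2b were thus below the control mean in both sets of BDS samples. Without BDS 21, BDS 25 and BDS 55, 6 of 9 members had a log2 fold change below 0, with a median of -0.09. The median over the 362 genes tested in that setting was also -0.09, and 4 of the 9 members lay below it. None of the members had an unadjusted p under 0.05 there, beside 20 lower and 0 higher of the 362 genes.

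**Figure D4:**
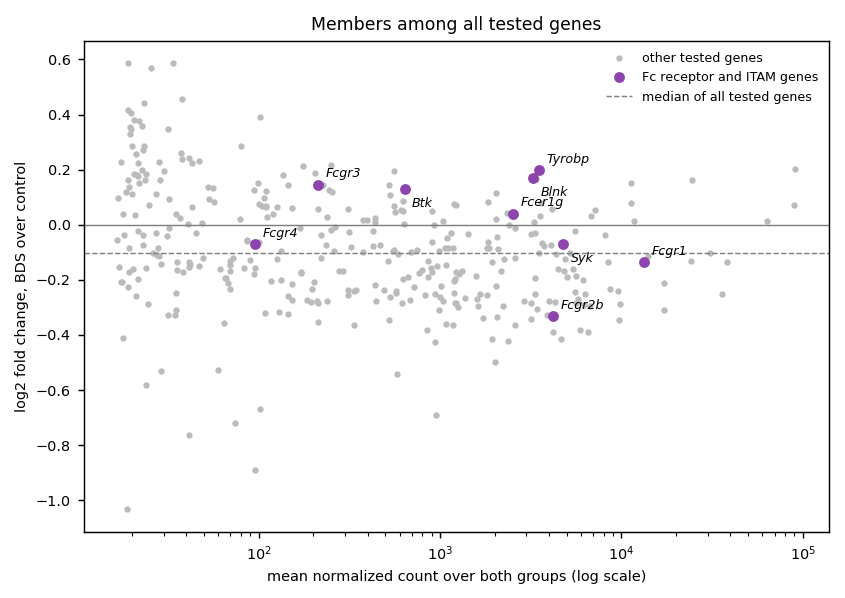
Log2 fold change, BDS over control (vertical axis), against the mean normalized count over both groups (horizontal log axis) for the 357 tested genes, with the 9 Fc receptor and ITAM genes in purple. Fcgr2b at -0.33 is the lowest and Tyrobp at 0.20 the highest of the 9, and all lie within the cloud of other genes.

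Ratios of 2 members within a sample do not depend on how the sample was scaled, and are described here with no test. The ratio of Fcgr1 to Fcgr2b, an activating over the inhibitory receptor, was 2.48 (BDS 7) to 3.96 (BDS 43) in BDS samples and 2.23 to 3.80 in controls, with a mean log2 difference, BDS minus control, of 0.21 ± 0.15 (SE). It was 0.10 without BDS 21, BDS 25 and BDS 55, and 0.12 without control 54. The ratio of Fcgr3 to Fcgr2b was 0.0407 to 0.0804 in BDS samples and 0.0353 to 0.0624 in controls. Its mean log2 difference of 0.49 ± 0.19 was the widest of the 7 ratios examined, and 3 BDS samples (BDS 21, BDS 25 and BDS 55) were above every control. Without them the difference was 0.23. Fcgr4 to Fcgr2b was 0.0200 to 0.0305 in BDS samples and 0.0162 to 0.0252 in controls, a mean log2 difference of 0.27 ± 0.12, 0.11 without the same 3 samples and 0.12 with background subtracted. In all 3 of these ratios BDS 7 was the lowest BDS sample and control 54 the lowest control, and Fcgr2b was highest in those samples of each group.

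Fcgr3 to Fcer1g was 0.0754 to 0.0952 in BDS samples and 0.0635 to 0.0987 in controls, so every BDS sample lay inside the control range. Its mean log2 difference was 0.12 ± 0.11, and 0.15 without BDS 21, BDS 25 and BDS 55. Leaving out single controls gave 0.05 (without control 27) to 0.18 (without control 9). Tyrobp to Fcer1g was 0.37 to 0.68 on the log2 scale in BDS samples and 0.25 to 0.58 in controls, with a mean log2 difference of 0.15 ± 0.07, and 0.06 without BDS 21, BDS 25 and BDS 55. Among the signalling genes, the Syk to Btk ratio was 7.51 to 8.71 in the 6 controls, the narrowest of the control ranges on the log2 scale (SD 0.07). It was 4.42 to 10.7 in BDS samples, with BDS 21, BDS 25 and BDS 55 below every control and BDS 35 and BDS 43 above every control. The mean log2 difference was -0.18 ± 0.20, 0.21 without the first 3, and -0.05 without BDS 55 alone. Blnk to Btk was 2.08 to 2.61 on the log2 scale in BDS samples and 2.20 to 2.44 in controls, a mean log2 difference of 0.05 ± 0.09, and 0.21 without BDS 21, BDS 25 and BDS 55.

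**Figure D5:**
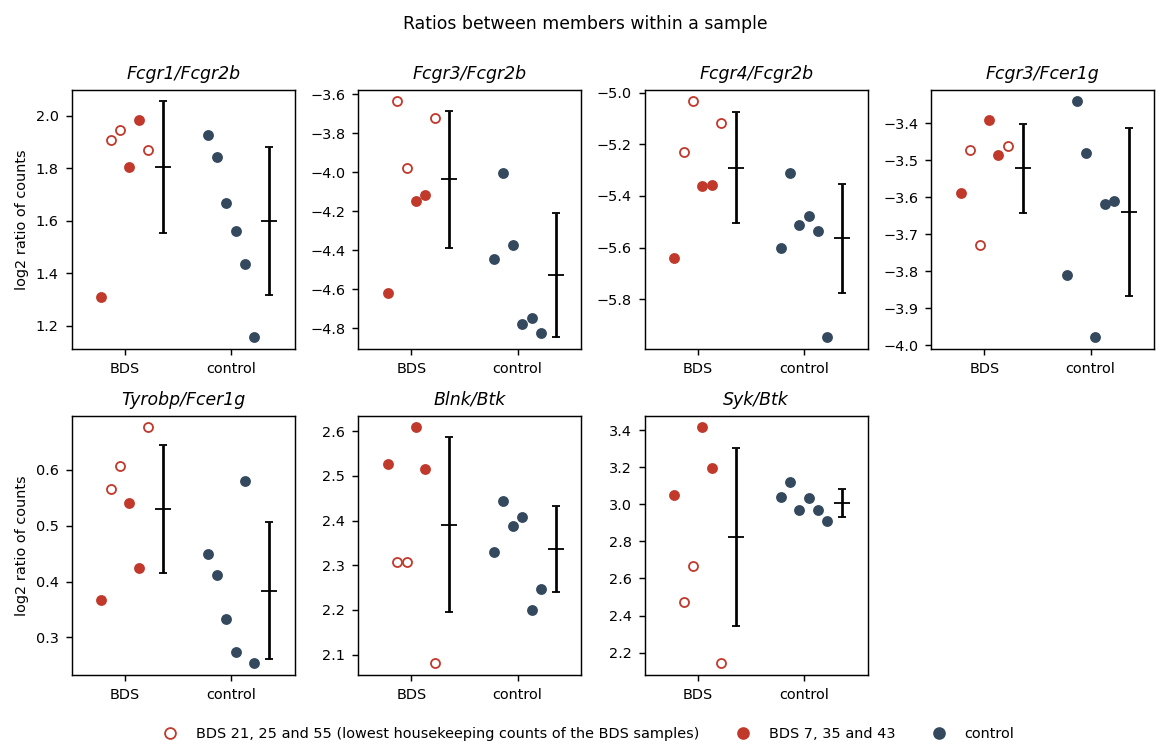
Log2 ratio of counts of 2 genes in the same sample (vertical axes, each panel on its own scale) for BDS and control samples, with the mean and SD of each group (n = 6); open circles are BDS 21, BDS 25 and BDS 55. Syk over Btk spans 2.14 to 3.42 in BDS samples and 2.91 to 3.12 in controls.

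Some members also varied together across samples. After the mean of each group was subtracted, Pearson's r over the 12 samples was 0.90 for Btk and Blnk. For this pair it was 0.91 within BDS and 0.88 within controls. Over the 12 samples r was 0.84 for Tyrobp and Btk, 0.81 for Fcer1g and Tyrobp, and 0.78 for Tyrobp and Blnk. For these pairs with Tyrobp no r was computed within each group. The order of the 6 controls was not shared by Fcer1g and Tyrobp, so their high value over the 12 samples did not hold within controls. BDS 21, BDS 25 and BDS 55 were the highest of the 12 samples for Tyrobp, Btk and Blnk. Among controls, control 44 was the highest for Tyrobp, Btk and Blnk but the lowest for Fcer1g. Control 9 was the lowest for Btk and Blnk, and control 13 for Tyrobp. For Syk, r over the 12 samples was -0.70 against Fcgr3 and -0.59 against Tyrobp, but 0.17 against Fcgr1 and 0.23 against Fcgr2b. The negative value against Tyrobp did not hold within controls. There control 13 was the lowest and control 44 the highest for both Syk and Tyrobp. These points share scaling and depth, so the values are descriptions. The most similar gene on the whole panel was Trem2, the receptor partner of Tyrobp, for Tyrobp (r = 0.96, and 0.97 within BDS and 0.88 within controls). For Fcgr2b it was Tnfrsf11a, the receptor RANK (r = 0.96, and 0.97 within BDS and 0.96 within controls). Fcer1g was most like B2m, the light chain of MHC class I (r = 0.93, and 0.98 within BDS but 0.70 within controls). Fcgr1 was most like the transcription factor gene Maf (r = 0.91, and 0.92 within BDS and 0.89 within controls). Btk was most like Stat6 (r = 0.92), Blnk most like Btk (r = 0.90) and Syk most like Irak2 (r = 0.90). The lowest likeness was that of Fcgr3 with Il11ra1 (r = 0.79) and Fcgr4 with Ccr3 (r = 0.80). Both partner genes were near background. Il11ra1 had means of 22.9 normalized counts in BDS and 16.8 in controls, and Ccr3 26.3 in BDS and 28.5 in controls. Without the 2 samples where the member lay farthest from its median, r was 0.73 for Fcgr3 and 0.63 for Fcgr4.

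Of 64 other genes listed for the pathway, 34 were on the panel and 25 were present. Of these 25, 20 had a log2 fold change below 0 and 5 above, with a median of -0.15, beside -0.10 over all tested genes. Over all tested genes, 236 of 357 were below 0. Relative to the panel median, 14 of the 25 were lower. At an unadjusted p under 0.05, 2 of 25 were lower and 0 higher, beside the 11.5% of all tested genes that were lower. Both belonged to the Src-family kinases and their regulators, of which 6 of 6 present genes were below 0 and 4 of 6 below the panel median. Ptprc (CD45), the phosphatase that sets the activity of Src-family kinases, was at 3887 ± 652 normalized counts in BDS and 4718 ± 387 in controls, a log2 fold change of -0.28 ± 0.10 (adjusted p = 0.269; n = 6 each). Lck, a Src-family kinase known from T cells, was near background at 23.7 ± 4.48 in BDS and 34.3 ± 6.53 in controls, a log2 fold change of -0.53 ± 0.18 (adjusted p = 0.247; n = 6 each).

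Among the partner receptors 4 of 6 present genes were below 0, and 2 of 6 below the panel median. Trem2 was at 11905 ± 2222 normalized counts in BDS and 10725 ± 565 in controls (log2 fold change 0.15 ± 0.11, adjusted p = 0.527). Itgb2, the beta chain of complement receptor CR3, had a log2 fold change of -0.17 ± 0.10 (adjusted p = 0.451). Among the inhibitory receptors and phosphatases 4 of 5 were below 0 and also below the panel median, with Lilrb3 at -0.33 ± 0.18 (adjusted p = 0.427) and Pecam1 at -0.15 ± 0.11 (adjusted p = 0.544). Among the genes after Syk 5 of 6 were below 0 and 3 of 6 below the panel median: Nfatc1 and Nfatc2, calcium-regulated transcription factors, had log2 fold changes of -0.25 ± 0.13 and -0.17 ± 0.09 (adjusted p = 0.395 and 0.428). The panel genes Trem1, Clec4e, Fcer1a, Cd22, Zap70, Cd247, Cd3d and Cd3e were above background in 0 of 12 samples and Cd244 in 1 of 12. The highest value of any of these 9 genes in 1 sample was 24.6 normalized counts in BDS and 18.2 in controls. Cd79b, an ITAM chain of the B cell receptor, was above background in 12 of 12 samples, at 188 ± 58.5 in BDS and 161 ± 43.6 in controls (log2 fold change 0.21 ± 0.22, adjusted p = 0.665), and Cd79a in 6 of 12, with a log2 fold change of -0.16 ± 0.28.

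The authors' deposited table gives its own group means and unadjusted p-values on their scaling. For Fcgr1 the authors' deposited table has means of 13723 in BDS and 14905 in controls, a fold of 0.92 with p = 0.0049, the smallest p among the 9 genes. For Blnk the authors' deposited table has 3717 in BDS and 3272 in controls, a fold of 1.14 with p = 0.0149. For Fcgr2b the authors' deposited table has a fold of 0.80 with p = 0.0935, and for Tyrobp a fold of 1.16 with p = 0.0903. For the other 5 genes the p in the authors' deposited table was 0.1952 (Fcgr3) or higher. In edgeR here the unadjusted p was 0.0389 for Fcgr1, 0.0423 for Fcgr2b, 0.0580 for Blnk and 0.0970 for Tyrobp. Under 0.05 were thus Fcgr1 and Blnk for the authors, and Fcgr1 and Fcgr2b here.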

How the data were processed

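Per the file headers and values, the authors deposited unnormalized whole-number counts of barcodes for 573 probes (545 endogenous, 14 housekeeping, 8 negative and 6 positive controls). A second deposited table holds values that the authors normalized and rounded, treated here as scores. Per the file headers it also gives the authors' fold (a linear ratio) and an unadjusted p-value. The design text states fewer housekeeping genes than the 6 it names. Barcode-reading software: not given in the sources used here.

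Here, counts were divided by each sample's geometric mean over those 6 genes, taken relative to its geometric mean over all 12 samples. A gene was tested if it exceeded its sample's negative-control mean by 2 SD in at least 40% of samples (5 of 12), which left 357. Groups of 6 were compared with edgeR 4.0.16 (R 4.3.3, quasi-likelihood test, no covariates), with Benjamini-Hochberg adjustment over the 357 genes and a threshold of 0.05. The code was tested on simulated data. Depth measures were compared by exact permutation. Alternatives were other scalings, housekeeping sets and filters, background subtraction, DESeq2 1.42.0, limma 3.58.1 (pseudocounts 1 and 10, and voom), the deposited scores, and samples left out.

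The members and lists were chosen with earlier results of these data known. Some genes of the marker lists are not reported here by name. Named from the pathway list are genes at an unadjusted p under 0.05, otherwise up to 2 present genes per role with the smallest p, and the genes not above background. Markers of other cells given with their own values were chosen after those values were seen. The most correlated gene is named for each member. The files name no build, so coordinates are those of RefSeq on GRCm38.p6.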

Additional observations from a re-analysis of the deposited data

Results flagged for a closer look

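Of 32 groups of values examined for a single sample far from the rest, 3 held one; chance alone gives about 1 in 20. Fcgr2b in BDS 7 was at 5571 normalized counts, and the next highest BDS sample was at 3551. The log2 ratio of Fcgr1 to Fcgr2b in BDS 7 was 1.31, and the next lowest BDS sample was at 1.81; this ratio shares the Fcgr2b value of BDS 7. Fcgr4 in control 5 was at 78.9 normalized counts, and the next lowest control was at 98.6.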

How the results depend on the processing

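Fcgr1, Fcgr2b, Fcgr3 and Blnk kept their sign in all 27 alternatives. Fcgr4 turned to a log2 fold change of 0.022, 0.0061 and 0.011, and Syk to 0.027, 0.0092 and 0.021, with TMM, total count and DESeq2's own scaling. Without BDS 21, BDS 25 and BDS 55, Fcer1g was at -0.11, Tyrobp at -0.055, Syk at 0.044 and Btk at -0.16, and the log2 ratios of Blnk to Btk and Syk to Btk were 0.21 and 0.21 higher in BDS. With single samples left out Fcer1g ran from -0.0036 (without BDS 21) to 0.093. No member passed the adjusted threshold in any alternative; the smallest was 0.051, for Fcgr2b without BDS 7. Genes past that threshold over the panel numbered 1 with background subtraction, 16 with voom and sample quality weights, 6 with DESeq2 on the housekeeping factors (0 with its filter set for 0.05, a setting chosen after seeing the data), and 0 to 4 with single samples left out (4 without BDS 7). Members at an unadjusted p under 0.05 numbered 1 with limma at pseudocounts 1 and 10 and with no filter (Fcgr2b, lower), 1 with limma on the deposited values (Blnk, higher), 3 with voom (Fcgr1 and Fcgr2b lower, Blnk higher), 0 with background subtraction and 0 without the 3 BDS samples, and 0 to 2 with single samples left out. Over all tested genes, limma gave 43 lower and 7 higher at pseudocount 1, and 45 and 5 at pseudocount 10. It gave 32 and 8 on the deposited values. No filter gave 39 and 12 of 545 genes, voom 85 and 11 of 357, and background subtraction 56 and 1 of 357. Without the 3 BDS samples there were 20 and 0 of 362. With single samples left out there were 22 to 87 lower and 2 to 10 higher. With TMM, total count and DESeq2's own scaling the members at that level were Blnk and Tyrobp, both higher. Without BDS 35 the members were also Blnk and Tyrobp, both higher, beside 45 lower and 9 higher of 357 genes. Without BDS 43 the members were Fcgr1, lower, and Tyrobp, higher, beside 45 lower and 10 higher of 349 genes. Without the housekeeping gene Sdha, and with all 14 housekeeping genes, the members were Fcgr2b, lower, and Blnk, higher. Other pathway genes at that level numbered 1 with DESeq2's own scaling, with genes above background in all 12 samples and without the 3 BDS samples, 5 with voom, and 2 to 7 with single samples left out (7 without BDS 7). Over all tested genes there were 14 lower and 13 higher of 356 with DESeq2's own scaling. Of the 278 genes above background in all 12 samples, 41 were lower and 2 higher. With voom 85 were lower and 11 higher of 357, and without BDS 7 there were 87 lower and 8 higher of 351. The causes were not tested. Total counts differed at an unadjusted exact permutation p = 0.0433 without control 5 and p = 0.0260 without BDS 43. No paired analysis was possible because the groups share no replicate number.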
